A study of Ambystoma mexicanum with 7 samples.

Results

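The miR-26 and miR-101 families are a pair of conserved vertebrate microRNA families, and their probes were followed between the regenerating and the non-regenerating axolotl limb. Members were all probes that carry a vertebrate miR-26, miR-26a, miR-26b, miR-101, miR-101a or miR-101b among their names. This rule found 7 of 2021 named probes on the Exiqon array (3 of miR-26 and 4 of miR-101) and 12 of 1974 reporters, as LC Sciences calls its probes, on the LC Sciences array (6 of each family). The stump group was non-regenerating hindlimb tissue of 3 white axolotls taken at amputation, with its skin, bone, muscle and nerve. The blastema group came from these 3 animals too (368, 369 and 378), as mid-bud blastemas at 17 days post amputation (dpa). No treatment or allele besides the amputation is given for either group, and the animals' age is not given in the sources used here. Each RNA sample was hybridized by Exiqon in the Hy3 dye against a Hy5-labelled pool of all the samples, on 1 array per sample. On each of the 3 LC Sciences arrays both tissues of 1 animal competed, the blastema labelled with Cy3 in animal 368 and with Cy5 in the other two. The families were selected on these arrays with the blastema and stump values of miR-26a already known, so all differences between the tissues are a description of these samples. They are given with their errors and without p-values, and how many members passed the threshold of the fit over the whole array is stated as a count that carries no evidence of its own.

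A microRNA guides a silencing complex to messenger RNAs that pair with its seed, the bases at positions 2 to 8 from its 5′ end. In mammals both families are known repressors of Ezh2, the enzyme that puts methyl groups on lysine 27 of histone H3 as part of Polycomb repressive complex 2. miR-26 is hosted by introns of genes of the CTDSP phosphatase family, and in mouse muscle cells it rises as myoblasts differentiate. miR-101 is best known for its loss in tumours that hold much Ezh2. The arrays measured small RNAs only, so that the level of the Ezh2 messenger was not measured.

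The sequences against which LC Sciences designed its reporters are shown because the reporters of a family differ from each other by single bases and gave different signals. Capitals mark the seed. The probes were designed for other species, and the axolotl sequences themselves and the sequences of the Exiqon probes were not analysed here.
hsa-miR-26a and dre-miR-26a: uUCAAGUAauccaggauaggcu
gga-miR-26a and xtr-miR-26: uUCAAGUAauccaggauaggc
dre-miR-26b: uUCAAGUAauccaggauagguu
hsa-miR-26b: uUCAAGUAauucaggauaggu
dre-miR-101a, mdo-miR-101 and xtr-miR-101a: uACAGUACugugauaacugaag
hsa-miR-101: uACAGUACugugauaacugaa
dre-miR-101b: uACAGUACuaugauaacugaag
gga-miR-101: gUACAGUAcugugauaacugaa

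All 6 miR-26 reporters shared the seed UCAAGUA, and 5 of the 6 miR-101 reporters shared the seed ACAGUAC. Positions are counted from 1 at the 5′ end of the human miR-26a or the zebrafish miR-101a form, whose base is written first. The chicken and frog miR-26 forms lacked the last base of human miR-26a. The zebrafish miR-26b form differed from it by C21U. The human miR-26b form differed by C11U and C21U and ended 1 base earlier. The human miR-101 form lacked the last base of zebrafish miR-101a, and zebrafish miR-101b differed from it by G10A. The chicken miR-101 form began 1 base earlier, which moved its seed window to UACAGUA. The share of G and C in the 12 sequences ran from 31.8% to 42.9%.

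On the Exiqon arrays all 7 member probes were lower in blastema than in stump, and in each of them the 3 blastema values lay under the 3 stump values. All 7 passed the filter on dim probes, as did 2012 of the 2021 named probes. All 7 were called lower (adjusted p under 0.05, limma with Benjamini-Hochberg over all probes), and none was called higher. Of all 2012 probes tested, 11.1% were called lower and 9.39% higher, and 19.2% had their 3 blastema values under their 3 stump values. Since the members were selected on this contrast, nothing is read from the count. The median difference, blastema minus stump, was -1.28 on the log2 scale over the 3 miR-26 probes and -1.41 over the 4 miR-101 probes, against 0.00 (-0.00136) over all probes tested. As the samples were whole tissues, fewer cells that make a microRNA and less of it in each cell cannot be told apart.

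The brightest member was the probe for miR-26a of mammals, birds and fish and for frog miR-26 (probe 11030). Its Hy3 signal was 299, 400 and 501 in the blastemas of animals 368, 369 and 378, and 1676, 996 and 1933 in their stumps. The Hy5 signal of the pooled reference on the same spots was nearly level, with 1.18-fold between the highest and the lowest array. The log2 ratio of Hy3 to Hy5 was -1.32, -1.15 and -1.01 in blastema and 0.22, -0.09 and 0.51 in stump, so that the 2 groups stood apart. miR-26a was 2.59-fold lower in blastema (log2 difference -1.37, standard error 0.16, n = 3 per group).

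The zebrafish miR-26b probe (17685) behaved alike, with Hy3 signals of 252, 328 and 391 in blastema and of 1152, 667 and 1238 in stump. Its difference was -1.28 (standard error 0.16), or 2.42-fold. The third miR-26 probe, for miR-26b of cow and dog (11031), was dimmer. It read 141, 161 and 182 in blastema and 344, 229 and 295 in stump, over a highest negative control of 116 to 128 on the 6 arrays. Its difference was -1.20 (standard error 0.16), and its Hy5 signal varied 1.54-fold over the arrays, with the lowest value (218) on the stump array of animal 378, where its ratio was highest (0.63).

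Among the miR-101 probes, the one that covers human miR-101 together with miR-101a of other vertebrates (31026) had Hy3 signals of 146, 167 and 203 in blastema and of 465, 315 and 691 in stump. Its log2 ratios were -1.43, -1.47 and -1.36 in blastema and -0.06, -0.22 and 0.77 in stump. The blastema values lay close together (SD 0.06) while the stump values were spread (SD 0.53), and the groups did not overlap. The blastema Hy3 signals were dim, over a highest negative control of 116 to 128 on these arrays. How far the dim signal narrows the spread in blastema was not tested. miR-101 was 3.01-fold lower in blastema (log2 difference -1.59, standard error 0.22, n = 3 per group).

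A pair of probes bears the fish name miR-101b, and both were called lower. The brighter of them (32338) read 137, 156 and 192 in blastema and 431, 290 and 606 in stump, with a difference of -1.59 (standard error 0.22). The dimmer one (17725) read 115, 118 and 134 in blastema and 221, 159 and 229 in stump, with a difference of -1.23 (standard error 0.19), and it was brighter than every negative control on 2 of the 3 blastema arrays. The remaining probe, for miR-101 and miR-101a without the human entry (17615), read 110, 112 and 122 in blastema, under the highest negative control on all 3 arrays, and 132, 125 and 138 in stump, over it on 2 of 3. Its fitted difference was -0.50 (standard error 0.12). The Hy3 signal of this probe in the stump exceeded that in the blastema by 1.12-fold to 1.20-fold in the 3 animals, near the level of the negative controls, and no fold is drawn from the fit.

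**Figure D1:**
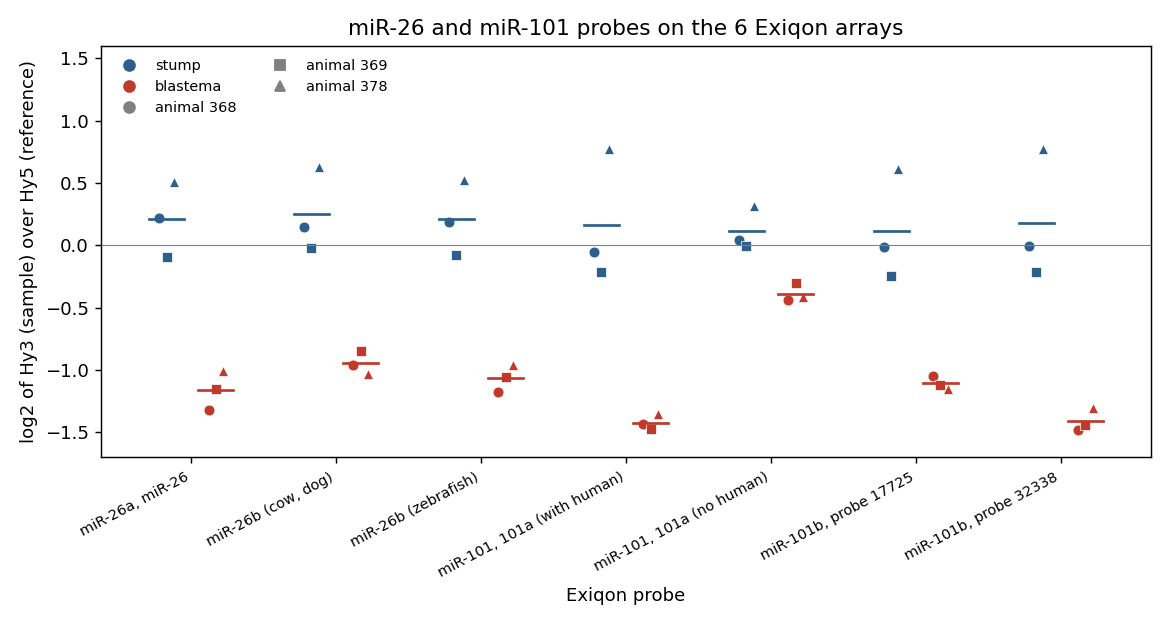
Log2 ratio of Hy3 (sample) to Hy5 (pooled reference) of the 7 member probes on the Exiqon arrays. Each point is 1 array (blue, stump; red, blastema; the symbol gives the animal) and each bar the mean of 3. In every probe the blastema points lie under the stump points, and the stump of animal 378 is the highest.

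In the Exiqon log2 ratios the stumps stood in the same order for all members. The stump of animal 378 had the highest log2 ratio and the stump of animal 369 the lowest in 7 of 7 probes, while the blastemas held no such order, with animal 378 highest in 4 and animal 369 in 2 of the 7. The Hy5 reference of miR-26a (1336) and of miR-101 (440, probe 31026) was lowest on the stump array of animal 378. How far this raised the normalized ratio of that stump was not tested. In the Hy3 signal alone this stump was the highest in 6 of the 7 probes. How often this order holds over all probes was not tested. In the Hy3 signal before normalization the blastema of animal 368 was the lowest in 7 of 7. The array of that blastema also had the most spots with a flag, 1987 against 521 to 1553 on the other arrays, though 4 of 4 spots remained for each member there apart from miR-101b (32338), which kept 3.

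The direction of all 7 differences held under each scaling that was tried, but their size did not. Loess within each array, the step Exiqon used, gave -1.37 for miR-26a. Centring each array on its median gave -2.10, and loess fitted on the spike-in spots alone gave -2.47 (standard error 0.33). For zebrafish miR-26b the same settings gave -1.28, -1.88 and -2.33, and for miR-101 -1.59, -1.86 and -2.39. Without background correction the dim miR-101 probe (17615) stood at -0.24 and the dimmer miR-101b probe at -0.79. Hy3 alone, set to 1 distribution over the arrays without the reference, gave -1.55 for miR-26a and -1.58 for miR-101. Which scaling is nearest to the true amounts was not tested.

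**Figure D2:**
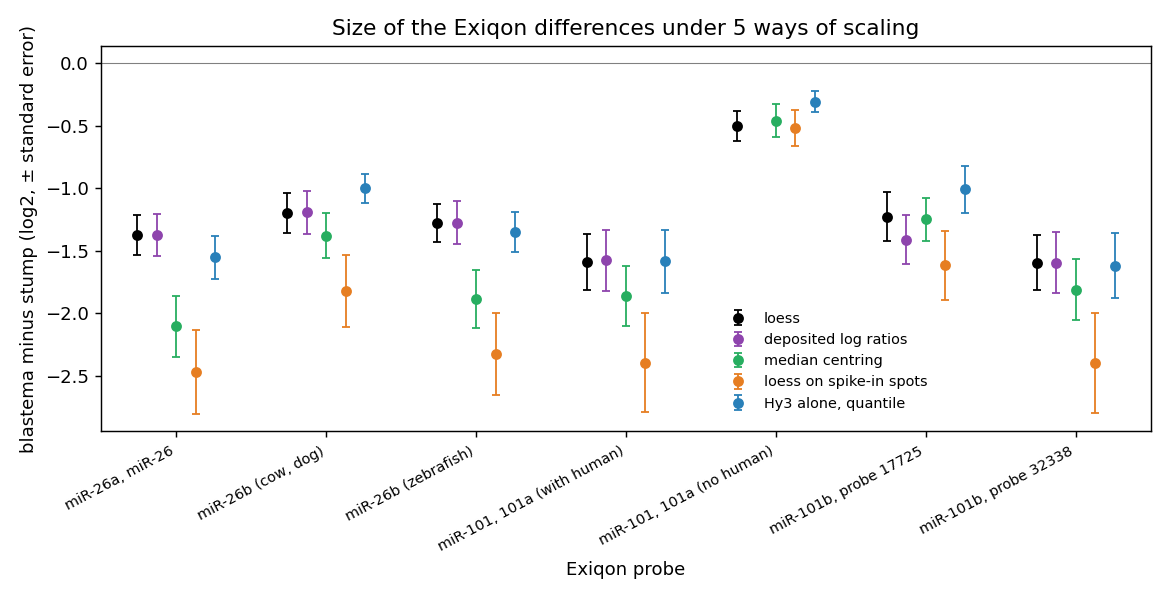
Blastema minus stump (log2) of the 7 Exiqon member probes under 5 ways of scaling, with the standard error of each fit as bars. All values are under 0; miR-26a runs from -1.37 with loess to -2.47 with loess on the spike-in spots, and the deposited log ratios, which hold no values for probe 17615, lie near the loess values (for probe 17725 without the stump of animal 369).

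On the LC Sciences arrays the miR-26 reporters were bright and lower in blastema, while the miR-101 reporters stood at the limit of detection. A signal under 32 was set to 32, and a reporter was tested where it reached 32 in all 3 samples of a group. Only 6 of the 12 members passed, 5 of miR-26 and 1 of miR-101. The 5 miR-26 reporters were called lower, the miR-101 reporter was not called, and none was called higher. Of all 500 reporters tested, 22.4% were called lower and 25.8% higher, and 31.8% had their 3 blastema values under their 3 stump values, as had all 6 members tested. Of these members the miR-101 reporter passed the filter through the stump alone, where its signal was higher. The 5 miR-26 reporters had a median difference of -1.02, against 0.01 (0.0067) over all reporters tested.

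Human miR-26a gave normalized signals of 2256, 2674 and 3467 in the blastemas of animals 368, 369 and 378, and of 5209, 4019 and 6138 in their stumps. It was 1.83-fold lower in blastema (log2 difference -0.87, standard error 0.27, n = 3 per group). The zebrafish reporter of the same sequence gave 2316, 3138 and 3426 in blastema and 5219, 4836 and 6235 in stump, a difference of -0.89 (standard error 0.24). Within a sample these 2 reporters of 1 sequence differed by 1.00-fold to 1.20-fold. The blastema values of both lay under the lowest stump value.

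The chicken and frog forms, shorter by the last base, gave differences of -1.02 (standard error 0.28) and -1.14 (standard error 0.28). Chicken miR-26a read 1947, 2531 and 3431 in blastema and 4680, 4821 and 6241 in stump. Frog miR-26 read 1721, 2192 and 2959 in blastema and 4760, 4142 and 6016 in stump. As with the full-length form, all blastema values lay under all stump values.

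The reporter for zebrafish miR-26b, which differs from miR-26a by C21U alone, showed the widest gap of all members. It read 475, 414 and 743 in blastema and 2794, 2107 and 3217 in stump. This was a 5.06-fold lower signal in blastema (log2 difference -2.34, standard error 0.30, n = 3 per group). The difference of zebrafish miR-26b minus that of zebrafish miR-26a was -1.38, -1.72 and -1.25 log2 units in animals 368, 369 and 378, the same direction in all 3. On the Exiqon arrays the same comparison, zebrafish miR-26b (17685) against miR-26a (11030), gave 0.17, 0.08 and 0.03, so that the 2 probes moved almost equally there. Whether the axolotl holds a separate miR-26b, or how far each probe also binds miR-26a, was not tested.

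**Figure D3:**
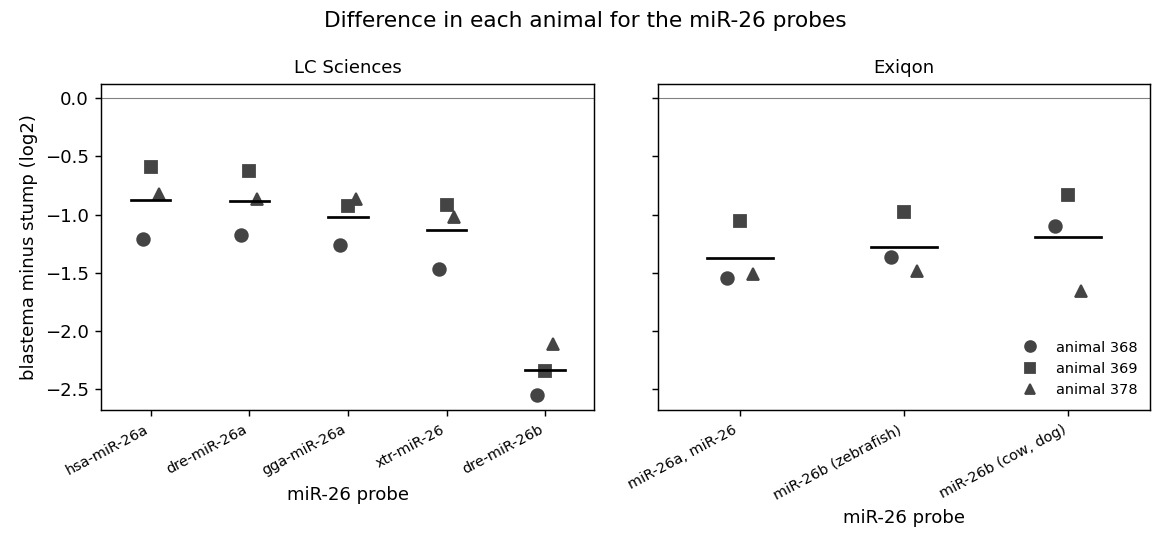
Blastema minus stump (log2) in each animal for the miR-26 probes of both platforms. Points are animals and bars the mean of 3; on LC Sciences zebrafish miR-26b lies at -2.34 while the other 4 reporters lie between -1.14 and -0.87, and on Exiqon the 3 probes lie between -1.37 and -1.20.

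The human miR-26b reporter, with C11U in the middle of the sequence besides the change near the 3′ end, stayed dark. Its signal was 25, 13 and 3 in blastema and 14, 7 and 15 in stump, under 32 in all 6 samples, so no difference could be measured. The only other reporter with the miR-26 seed, hsa-miR-1297 of 17 bases, read 2 to 21 and was dark as well, as was gga-miR-144 (7 to 17), which shares the seed window of the chicken miR-101 form.

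The miR-101 reporters gave no clear normalized signal. Zebrafish miR-101a, the only one tested, read 16, 33 and 27 in blastema and 46, 39 and 49 in stump. Its groups did not overlap, but 2 of the 3 blastema values were under the floor of 32 and the difference of -0.46 (standard error 0.20) did not pass. The opossum and frog reporters of the same sequence read 19, 30 and 19 and 7, 38 and 33 in blastema, and 45, 22 and 39 and 51, 14 and 57 in stump, so that both overlapped between the groups. Within a sample the 3 reporters of this sequence differed by 1.13-fold to 2.79-fold, a spread wider than that of the miR-26a reporters. Human miR-101, shorter by 1 base, read 12 to 16 in blastema and 22 to 26 in stump, and zebrafish miR-101b, with G10A, 4 to 16 and 13 to 17, all under the floor. Chicken miR-101 read 18, 29 and 32 in blastema and 53, 2 and 44 in stump. The floor of 32 limits how large a difference the fit can give at these signals. With a floor of 10 the difference of zebrafish miR-101a was -0.87 (standard error 0.32) and did not pass either. Whether a difference of the size seen on the Exiqon arrays was present could not be decided on LC Sciences.

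**Figure D4:**
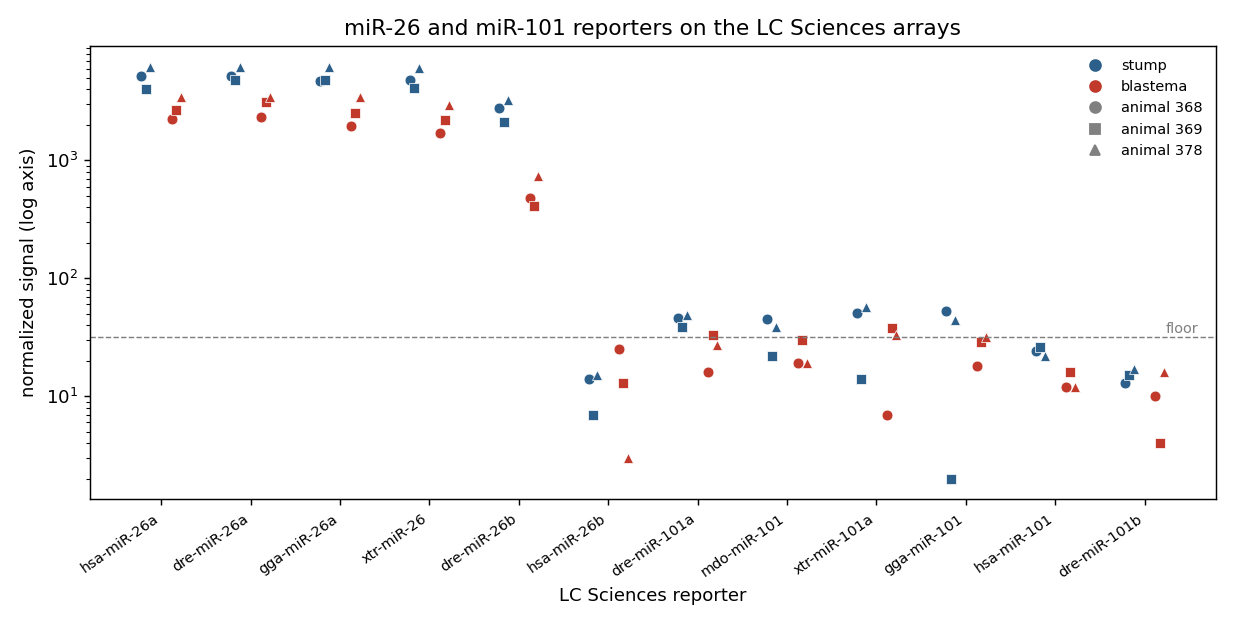
Normalized signal (log axis) of the 12 LC Sciences member reporters in each sample (blue, stump; red, blastema; the symbol gives the animal). The dashed line is the floor of 32; 5 miR-26 reporters lie far above it with the blastema lower, and human miR-26b and the 6 miR-101 reporters lie around or under it.

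Spot readings before normalization were read for the array of animal 368, where each reporter has 2 spots. The spots of reporters that were dark in both samples had a median of 309.8 in Cy3 (blastema) and 44.2 in Cy5 (stump). Their 5th and 95th percentiles were 284 and 359 in Cy3 and 40.8 and 49.2 in Cy5. The spots of human miR-26a read 1935 and 1661 in blastema and 13023 and 10485 in stump. After subtraction of the dark level this was a log2 ratio of -2.98, against -4.09 for zebrafish miR-26b, whose spots read 595 and 628 in blastema and 5414 and 4924 in stump. The 4 spike-in control reporters lay at -0.25 to -0.09. In the company's normalized signals the same animal showed -1.21 for human miR-26a and -2.56 for zebrafish miR-26b. The direction and the gap between these 2 reporters were thus present before normalization, and their sizes differ with it. The miR-101 spots read 52 to 75 in stump, over the dark 95th percentile, except those of zebrafish miR-101b (42 and 46). In blastema no miR-101 spot was over the dark 95th percentile, the highest reading 349. As the blastema of this animal carries Cy3 and its stump Cy5, dye and tissue cannot be told apart on a single array. In the normalized signals the mean of the 4 spike-in reporters over the 3 animals was higher in blastema by 2.91 log2 units. Centring on them lowered every difference by that amount, to -3.78 (standard error 0.65) for human miR-26a.

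The count on the LC Sciences arrays changed with each animal left out. Without animal 368 or without animal 369, 1 reporter, zebrafish miR-26b, was called lower, and without animal 378 there were 3 (zebrafish miR-26b, chicken miR-26a and frog miR-26). The difference of human miR-26a ran from -0.71 to -1.02 in these fits, against -0.87 (standard error 0.27) with all animals. Its direction held, but it lost its call with each animal left out. On Exiqon 6 of 7 probes were still called without animal 378, the exception being the dim miR-101 probe 17615 (-0.39).

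The probes for passenger strands, the other arms of the same hairpins, gave no signal on either platform. Exiqon held only 1 such probe, for miR-101*, and none for miR-26. On both platforms these probes carry mammal names only. The Exiqon probe for miR-101* (17935) read 115 to 118 in blastema and 117 to 121 in stump, under the highest negative control on all 6 arrays. The 4 LC Sciences reporters for human miR-101*, miR-26a-1*, miR-26a-2* and miR-26b* were under 32 in all samples.

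The probes closest to the members in their pattern over the 6 samples were ranked by the root mean square difference of centred log2 values. On Exiqon, among 1051 vertebrate probes, miR-26a lay nearest to dre-miR-736 (0.09), dre-miR-133c (0.15), hsa-miR-338-3p (0.18), hsa-miR-30e (0.18) and mmu-miR-30e (0.19). Zebrafish miR-26b had the same first 2 and both miR-30e probes (0.11 to 0.14), with mmu-miR-455 (0.16) as the fifth. The miR-101 probe lay nearest to hsa-miR-29b (0.22), dre-miR-455 (0.22), mmu-miR-455 (0.26), dre-miR-736 (0.26) and hsa-miR-338-3p (0.27). miR-133 is a muscle microRNA, though the form miR-133c is not on the muscle list used below. miR-455 is on the cartilage list, while the other Exiqon neighbours are on no tissue list. The ranking includes the difference between the tissues on which the members were selected. The nearest probe, dre-miR-736, had a difference of -1.37, as had miR-26a. No tissue of origin is read from the neighbours.

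On LC Sciences, among 494 reporters, human miR-26a lay nearest to gga-let-7a (0.14), xtr-let-7a (0.20), gga-let-7f (0.21), gga-miR-126 (0.22) and xtr-miR-146b (0.22). Of these, only miR-126 is on a tissue list used below, that of endothelium. Zebrafish miR-26b had other neighbours, gga-let-7g (0.14), gga-miR-10b (0.15), xtr-miR-10b (0.16), dre-miR-10d (0.23) and gga-let-7k (0.31). Human miR-101 was at the floor in every sample and had no pattern to compare. Zebrafish miR-101a, itself at the floor in 2 samples, lay nearest to hsa-miR-195 (0.13), xtr-miR-107 (0.15), dre-miR-34 (0.17), xtr-miR-30a-5p (0.17) and xtr-miR-146b (0.17).

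Other microRNAs reported to repress Ezh2 in mammals (let-7a to let-7i, miR-98, miR-124, miR-124a, miR-138, miR-214 and miR-217) were counted beside the members. On Exiqon 19 of their 28 probes were called lower, none was called higher and 9 did not pass, with a median difference of -0.62. Over all Exiqon probes tested, many of them near the negative controls, 11.1% were called lower. The signal of 4 of the 28 probes was over the highest negative control on no array. On LC Sciences 41 of 62 reporters were tested, of which 32 were called lower, none higher and 9 did not pass, with a median difference of -1.16. Over all LC Sciences reporters tested 22.4% were called lower. Of the 62 reporters 17 were under 32 in all samples, among them those of miR-138 and miR-217 from human, opossum, chicken, frog and zebrafish. The counts therefore do not describe every microRNA on this list. Most of these probes are of the let-7 family, which promotes differentiation, so that they share much of their sequence and are not separate measurements. The brightest Exiqon probe, for let-7e and let-7k, read 1107, 1782 and 1903 in blastema and 6057, 4048 and 5430 in stump (log2 difference -0.71, standard error 0.12). Human let-7a was the brightest on LC Sciences, with 3372, 4502 and 4532 in blastema and 5900, 7309 and 5935 in stump, and its difference of -0.63 (standard error 0.23) did not pass. The let-7a reporters of zebrafish, chicken and opossum, next in brightness, were called lower, with differences of -0.77, -0.77 and -0.86.

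Markers of muscle, cartilage and endothelium were lower in blastema, as the members were. Over all features tested, 11.1% on Exiqon and 22.4% on LC Sciences were called lower. The Exiqon share includes many probes near the negative controls. All 5 muscle microRNAs listed (miR-1, miR-133a, miR-133b, miR-206 and miR-499) were found, and 11 of 11 of their probes were called lower on Exiqon and 11 of 26 tested on LC Sciences, none higher. Their summed LC Sciences signal was 4148, 39521 and 41668 in the blastemas of animals 368, 369 and 378 and 102114 to 114722 in the stumps. The blastema of animal 368 thus read the lowest. As it was the only blastema labelled with Cy3, dye and animal cannot be told apart in this value. Of the 27 muscle reporters only gga-miR-499 was under 32 in all samples. The summed Exiqon signal was 1776, 7120 and 8182 in blastema and 34702 to 58158 in stump. The same blastema was the lowest in the Hy3 signal of all 7 member probes. This rank was not particular to muscle. Animal 368 also had the lowest summed Exiqon signal of the 3 blastemas for the epidermis, blood, endothelium and cartilage lists. The gap was wider for muscle, at 1776 against 7120 and 8182, than for these lists. Of them blood had the widest, at 2878 against 4560 and 5096. On LC Sciences the blastema of animal 368 was not the lowest for cartilage, at 90 against 178 and 85. In the normalized log2 ratios on Exiqon this blastema was the lowest in 4 of the 7 member probes. Cartilage (miR-140, miR-455) was called lower in 6 of 6 Exiqon probes. On LC Sciences only 2 of its 5 reporters were tested, and both were called lower. A reporter can pass the filter through the stump alone, and whether these 2 did was not tested. The summed signals of the 5 were low, 85 to 178 in blastema and 304 to 519 in stump. Endothelium (miR-126) was called lower in 3 of 3 and 4 of 4, with 1729 to 3350 and 6079 to 6738.

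Epidermal and blood markers did not follow this pattern on both platforms. Epidermal miR-203 and miR-205 were called lower in 2 of 3 Exiqon probes, with summed signals of 2056 to 2712 in blastema and 4330 to 6737 in stump, the same direction as the members. On LC Sciences 3 of their 7 reporters were called higher and none lower, with summed signals of 31917 to 44306 in blastema and 23039 to 27437 in stump. Of blood probes (miR-451, miR-223, miR-142-3p, miR-142-5p and miR-150), 3 of 10 were called lower and 1 higher on Exiqon, with summed signals of 2878 to 5096 in blastema and 4457 to 5007 in stump. On LC Sciences 2 of 16 tested were lower and 10 higher, with summed signals of 5765 to 15598 and 3232 to 5193. Of the 26 blood reporters 10 were under 32 in every sample, among them all those of miR-142-3p and miR-142-5p. The part of muscle, cartilage, vessels, skin and blood in the levels of miR-26 and miR-101 was not tested.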

How the data were processed

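Both companies measured aliquots of the same 6 RNA samples, 3 blastemas and 3 stumps of the same animals. For Exiqon the deposited values used are spot intensity in each dye, as scanned, and log2 ratios of Hy3 to Hy5. The company had corrected these ratios for background and fitted them with loess. For LC Sciences the deposited signals are linear intensity after the company's normalization, which is Lowess in the methods and global in the headers of the arrays of animals 369 and 378, so that the method is not settled. Of the LC Sciences arrays, spot intensity before normalization was used for animal 368. Columns of the study's own fold changes and t-tests were not used.

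Exiqon spots were corrected with normexp (offset 10), which adds a constant that keeps dim ratios small, and loess within arrays, with control spots at weight 0, in limma 3.58.1 (R 4.3.3). Flagged spots were dropped and up to 4 spots per probe averaged. Probes stayed in the fit if 50% or more of their spots exceeded the local background by 2 SD on all 3 arrays of a group. The floor of the LC Sciences signals was 32. A further 206 Exiqon IDs without a name and 12 LC Sciences controls were left out. Groups were compared with lmFit and eBayes without pairing, with Benjamini-Hochberg over all probes kept and a threshold of 0.05, and differences of low signals are understated by the offset and the floor.

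The animal pairs the samples per the labels. After centring each group, the correlation of blastema and stump of an animal was -0.03 to -0.02 on Exiqon and -0.05 to 0.17 on LC Sciences. The members and lists were chosen with earlier results of these data known. Named were all member probes, passenger strands, the 5 nearest probes of miR-26a, zebrafish miR-26b and miR-101, and the brightest of the Ezh2 list. Alternatives covered background, normalization, channel, deposited ratios, flags, filters, floor, dye, a block for the animal, leaving out each animal and the methods' t-test. Simulated data were used to test the fit. The number of arrays limits the precision.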

Additional observations from a re-analysis of the deposited data

How the results depend on the processing

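No difference of a member probe changed direction under any alternative run. On Exiqon 88 of 89 values for single probes kept their side of the threshold, and on LC Sciences 40 of 59 (18 lost the call and 1 gained it). The Exiqon count of 7 probes called lower was 6 to 7 with each animal left out and 0 with the methods' t-test at the study's threshold, where it was 5 after Benjamini-Hochberg. The LC Sciences count of 5 was 1 to 3 with each animal left out, 2 with a floor of 10, 1 without a filter on dim reporters and 2 with the methods' t-test at the study's threshold. With the lower floor and without the filter 1219 and 1974 reporters were tested instead of 500; the cause of the lost calls was not tested. With quantile normalization human miR-26a lost its call (-0.76). Centring on the spike-in reporters, which moved the median of all reporters to -2.90, gave 6, the addition being zebrafish miR-101a. With the animal as a replicate block the counts stayed at 7 and 5, and this changed no call of a member. Over all features, the Exiqon calls went from 412 to 274 without animal 369, to 211 without animal 378 and to 84 with the methods' t-test at its threshold, and those of LC Sciences from 241 to 428 with centring on the spike-in reporters, to 105 without animal 369, to 79 without a filter and to 143 with the methods' t-test at its threshold. Signals near the negative controls or the floor limit what can be said of miR-101 on LC Sciences and of Exiqon probe 17615.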
